A study of Mus musculus with 27 samples.

Results

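Mouse splenic B cells stimulated with LPS in the presence of disulfiram (group LPS_DSF, 4 libraries) were compared with unstimulated B cells (group NS, 4 libraries), gene by gene. The comparison asked which genes stayed induced or repressed against the resting level, which stood back at it, and which were moved past it. It used 8 of the 27 libraries of the series, and every gene with enough counts was a member. The cells came from spleens of wild-type C57BL6 mice, were enriched as untouched B cells by negative selection, and were cultured for 3 h. NS cells received DMSO and no stimulus. LPS_DSF cells received LPS and disulfiram at 1 µM. A further 4 libraries from cells given LPS and DMSO (group LPS) were used to say what LPS did without the drug. They were also compared with LPS_DSF to sort the genes. The labels do not state the age or sex of the mice or whether libraries of a group came from separate animals, so p-values measure the spread between these libraries, which may be technical. Cells given disulfiram without LPS were not analysed here, so a change against NS joins the effects of stimulus and drug.

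LPS, a component of the outer membrane of Gram-negative bacteria, is sensed on B cells by TLR4. The receptor activates NF-kB, which induces its own inhibitors, survival genes and cytokines, and a separate branch that yields type I interferon and interferon-stimulated genes. B cells then leave quiescence, raise Myc and enlarge their ribosome-building machinery. Disulfiram is an oral drug for alcohol dependence that blocks aldehyde dehydrogenase. Its dithiocarbamate metabolite binds copper and zinc, and the drug reacts with thiol groups of proteins. Cells read misfolded protein through HSF1, oxidised or electrophile-modified thiols through NRF2, and free zinc through MTF1, and each of these factors recognises a short DNA element.

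Stretches of promoter that hold such elements are shown for 7 genes whose levels are described below, because these genes stand for the programmes the comparison turns on. They were read from RefSeq windows of 250 bases before to 50 bases after each gene's start (build GRCm38.p6, given on the gene's own strand), with the element in capitals. The heat shock element (GAANNTTCNNGAA or TTCNNGAANNTTC) is shown in Hspe1, which with Hspd1 forms a pair of mitochondrial chaperone genes transcribed away from each other, at chr1:55088053-55088082 on the plus strand, where a pair of overlapping matches ends 71 bases before the start of Hspe1. The same bases lie before 1 of the 2 RefSeq starts of Hspd1 and within an annotated exon of another Hspd1 transcript (GENCODE vM21).
Hspe1: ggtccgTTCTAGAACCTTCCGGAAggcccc
Gclm (chr3:122245383-122245471, plus strand), whose product limits glutathione synthesis, holds an antioxidant response element (TGACNNNGC, here on the other strand) 125 bases before its start.
Gclm: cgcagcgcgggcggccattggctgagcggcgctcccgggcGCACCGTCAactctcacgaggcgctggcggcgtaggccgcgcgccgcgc
Mt1 (chr8:94179026-94179081, plus strand), a zinc-binding metallothionein, holds a metal response element core (TGCACNC or TGCGCNC) 16 bases before its start.
Mt1: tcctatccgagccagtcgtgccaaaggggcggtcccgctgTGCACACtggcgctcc
The interferon-stimulated response element (GAAANNGAAA) is shown in Ifit1 (chr19:34640745-34640853, plus strand) and Cxcl10 (chr5:92349053-92349139, minus strand), ending 75 and 203 bases before their starts.
Ifit1: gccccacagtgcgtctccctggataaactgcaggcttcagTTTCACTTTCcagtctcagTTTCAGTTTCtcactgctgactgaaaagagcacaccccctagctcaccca
Cxcl10: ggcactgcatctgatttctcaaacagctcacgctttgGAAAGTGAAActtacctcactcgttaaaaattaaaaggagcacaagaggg
An NF-kB site (GGGANNTTCC) is shown in Nfkbia (chr12:55492648-55492716, minus strand) and Cxcl1 (chr5:90891134-90891224, plus strand), ending 19 and 60 bases before their starts.
Nfkbia: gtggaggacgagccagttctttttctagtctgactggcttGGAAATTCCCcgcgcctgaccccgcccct
Cxcl1: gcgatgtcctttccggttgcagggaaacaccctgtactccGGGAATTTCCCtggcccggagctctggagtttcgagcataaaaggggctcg
Searched on both strands of all 27025 windows, the heat shock element was present in 0.662%, the antioxidant element in 14%, the metal element in 28.2%, the interferon element in 3.99% and the NF-kB site in 1.63%. Of the 17 heat shock genes with a window, 4 (23.5%) held the heat shock element, Hspe1 and Hspd1 sharing theirs. The antioxidant element was present in 7 of 17 NRF2 targets (41.2%), the metal element in 6 of 11 metal response genes (54.5%) and the interferon element in 14 of 22 interferon-stimulated genes (63.6%). The NF-kB site was present in 2 of 23 NF-kB targets (8.7%), 5 of 22 interferon-stimulated genes (22.7%) and 6 of 18 chemokine and cytokine genes (33.3%). In the 9399 windows of genes tested in all 3 comparisons described below, the shares were 0.564%, 17%, 40%, 4.06% and 1.74% in the order above. A match describes these letters only and is not evidence of binding.

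Deposited gene counts summed to 19475589 to 22583661 per NS library and to 17898147 to 20967858 per LPS_DSF library. The NS libraries fell into pairs: replicates 1 and 2 stood apart from replicates 3 and 4. In the 4 NS libraries 865 of 9721 genes (8.90%) ranged 2-fold or more, against 16 of 8837 (0.181%) in LPS_DSF and 17 of 9252 (0.184%) in LPS. Replicates 1 and 2 were 2-fold or more above replicates 3 and 4 for 268 genes and below them for 382. What separated the pairs was not tested. Leaving out either pair moved the fold change of 42 of the 102 genes named below by more than 1.5 times, and the values with 1 pair left out at a time (without replicates 1 and 2, then without replicates 3 and 4) are given for those of them whose fitted fold change is printed. Levels are given as FPKM, the authors' fragment counts scaled to gene length. How they were scaled between libraries is not given in the sources used here. Every B cell marker was detected in all libraries, and the 10 markers summed to a median of 3261 FPKM in NS and 1554 in LPS_DSF. The summed level of 10 myeloid markers was 409.1 to 489.8 FPKM in NS and 184.3 to 190.6 in LPS_DSF, with none at 0 in every library. Summed T cell markers had medians of 18.3 and 15.1 FPKM, NK markers of 3.66 and 1.42, neutrophil markers of 54.7 and 29.2, and erythroid markers of 10.3 and 3.13, in NS and LPS_DSF. Summed plasma cell markers had medians of 209.2 and 484.1 FPKM and plasmacytoid dendritic markers of 42.5 and 366.7, with 403.2 and 248.7 for LPS alone. Abundant members weigh most in such sums, and single members went both ways. In the test described below, 3 of 5 plasma cell markers were higher than NS and 2 lower (median log2 change 0.16). Of 4 plasmacytoid dendritic markers 3 were higher and 1 was lower (median 0.65). The part of other cells in the results was not tested, and in these bulk samples fewer cells of a type and less RNA per cell cannot be told apart.

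**Figure D1:**
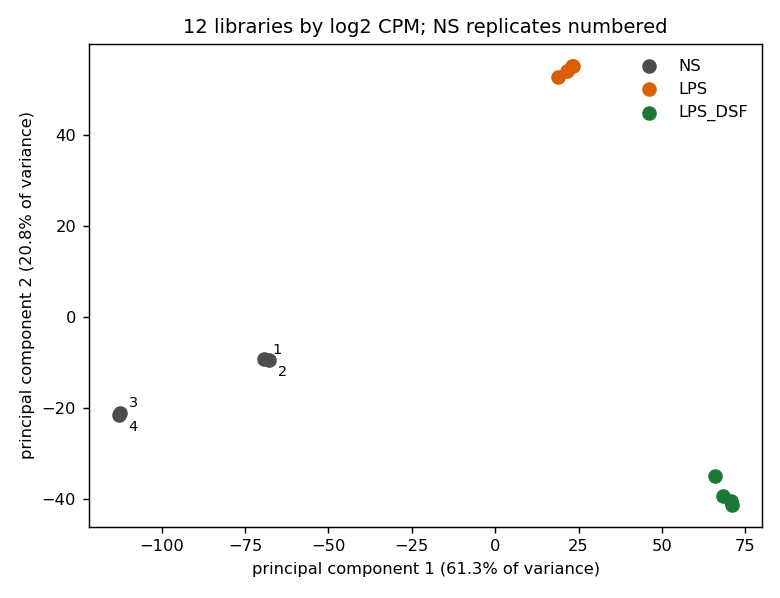
Principal components of the 12 libraries of the NS, LPS and LPS_DSF groups (log2 CPM, TMM-scaled), each point 1 library, with NS replicates numbered. PC1 held 61.3% and PC2 20.8% of the variance, and NS replicates 1 and 2 lie apart from replicates 3 and 4, whereas the other groups are tight.

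Most genes differed from rest after LPS with disulfiram. Of 14663 genes tested (edgeR's quasi-likelihood test, Benjamini-Hochberg adjusted p under 0.05, no minimum fold), 5031 were higher in LPS_DSF than in NS (34.3%) and 5464 were lower (37.3%). Leaving out NS replicates 1 and 2 gave 6064 higher and 6361 lower genes, and leaving out NS replicates 3 and 4 gave 5677 and 5984. Each of these settings keeps only NS libraries that lie close together, so the spread between the pairs does not enter. Calls made without a pair, here and below, are therefore less strict than those with all NS libraries. Scaling by total counts instead of TMM shifted the median of all genes by -0.409 on the log2 scale, with 3151 genes called higher and 7453 lower. The share of calls that were higher was 47.9% with TMM and 29.7% with total counts.

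Genes tested in all 3 comparisons (13636) were then sorted by what LPS alone did. These comparisons share libraries, so the classes are a description built from 3 sets of calls and are not independent results. LPS raised 4190 genes (30.7%). Of these, 3049 (72.8%) were still above NS with disulfiram, which divides into 1382 that were above LPS as well (moved further), 867 with no call against LPS and 800 that were below LPS but above NS (kept in part). A further 638 (15.2%) had returned to the NS level, meaning that they were called below LPS, had no call against NS, and had a 95% interval within 2-fold of NS. In 308 (7.35%) the level was pushed below NS, and 195 were not resolved. Over all 13636 genes, 34.7% were called higher and 37.3% lower in LPS_DSF than in NS, and 34.4% higher and 36.9% lower in LPS_DSF than in LPS (35.1% and 36.0% of 14154 genes tested there).

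LPS lowered 4414 genes (32.4%). With disulfiram 3379 of them (76.6%) were still below NS, 491 (11.1%) had returned and 337 (7.63%) were pushed above NS. Of the genes still lower, 1654 were below LPS as well, 1151 had no call against LPS and 574 were below NS but above LPS. Another 1212 genes were higher, and 1241 lower, than both NS and LPS with no call for LPS alone. Median log2 fold changes of LPS_DSF against NS were 1.31 for raised genes that moved further, 0.97 for those kept without a call against LPS and 0.83 for those kept in part. In the mirror classes they were -1.49, -1.10 and -0.78.

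In the replicated libraries, the share of genes still on the LPS side of rest was larger where LPS had moved them further. The size of the LPS effect and the call against NS rest on the same NS libraries, so this is a description. Among genes raised by less than 0.5 on the log2 scale, 53.3% were still higher with disulfiram, compared with 71.5% of those raised by 0.5 to 1, 84.7% by 1 to 2 and 94.1% by 2 to 4. All 74 genes raised by more than 4 were still above NS. Among lowered genes the shares rose from 66.9% through 76.7% and 80.2% to 86.9%, and all 6 genes lowered by more than 4 were still below NS. A second experiment with 1 library a group, described at the end, did not show this order. There 61.1% of genes raised by 1 to 2 were above NS in LPS_DSF, 53.1% of those raised by 2 to 4 and 36.8% of 57 raised by more than 4 (median log2 ratio -0.97). Of lowered genes 66.0% by 1 to 2 and 58.1% by 2 to 4 were below NS there, and 2 of 5 by more than 4. Genes pushed past NS had the smallest LPS effects, with a median of 0.37 for those pushed below. The still higher class was shared widely between settings, with 2746 of 3049 genes (90.1%) in it without either NS pair. The returned class was not, with 199 of 638 raised genes (31.2%) and 134 of 491 lowered genes (27.3%) in it in all 3 settings.

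**Figure D2:**
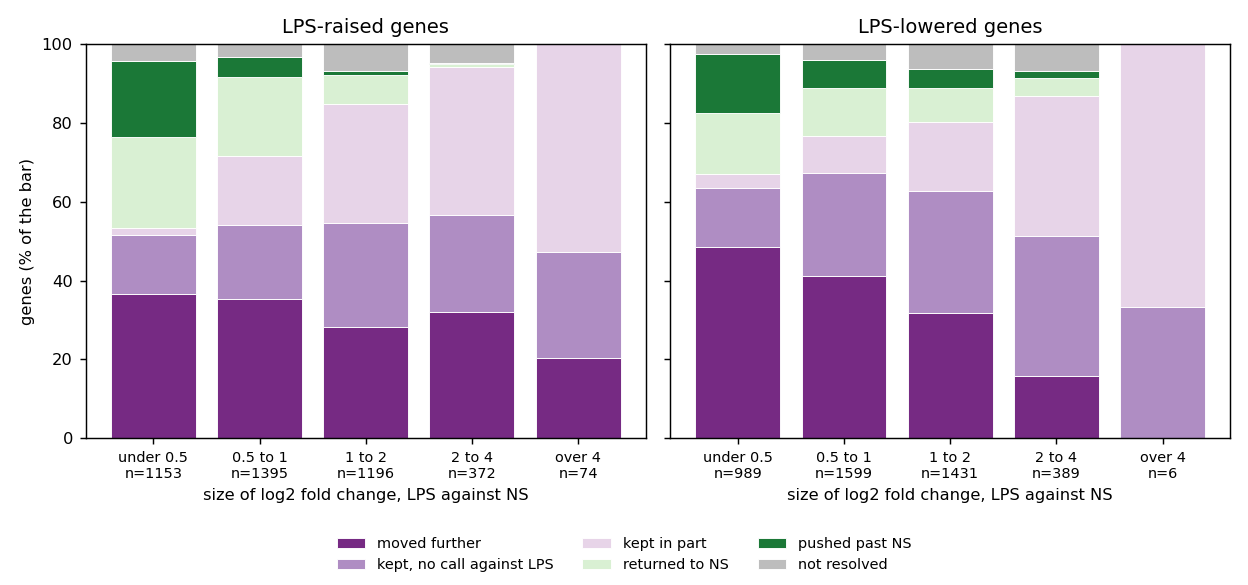
Share of genes (%) in each class of LPS_DSF against NS, for LPS-raised and LPS-lowered genes split by the absolute log2 fold change of LPS against NS. The share still on the LPS side of NS is 53.3% in the weakest and 94.1% in the 2 to 4 stratum of raised genes.

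The NF-kB programme stayed up. Of 28 NF-kB targets tested, 27 were higher in LPS_DSF than in NS and none was lower. The median log2 fold change was 2.10, against 2.22 for LPS alone. LPS alone had raised all 28. Of all LPS-raised genes 72.8% were still higher, and of those raised by 2 to 4 on the log2 scale 94.1%. Without NS replicates 1 and 2, or without replicates 3 and 4, all 28 were higher. Nfkbia (ENSMUSG00000021025, chromosome 12 from 55489410 to 55492647), which encodes the inhibitor that NF-kB induces against itself, had FPKM of 114, 111, 125 and 117 in NS and 476, 511, 488 and 517 in LPS_DSF. The groups did not overlap, and the difference was 2.10 ± 0.071 log2 (SE, n = 4, adjusted p = 6.96e-08). LPS_DSF was not called different from LPS (difference 0.073, adjusted p = 0.106). Nfkbiz, a nuclear coactivator of NF-kB, stood at 7.24 to 13.2 in NS, 181 to 187 in LPS and 208 to 215 in LPS_DSF, a rise of 4.40 ± 0.21 log2 against NS. Icam1, an adhesion molecule, rose by 3.61 ± 0.063 and Gadd45b, a stress-response adaptor, by 4.16 ± 0.18. Both were above LPS too, by 0.52 and 0.71. In 13 of the 28 targets, among them Nfkb1, Nfkb2, Traf1 and Birc3, the level was between NS and LPS.

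In the replicated libraries interferon-stimulated genes were also still induced, and all 30 tested were higher than NS. Their median was 3.91, against 4.08 for LPS alone. LPS alone had raised all 30. Of all genes raised by 2 to 4 on the log2 scale 94.1% were still higher, and so were all 74 raised by more than 4. The second experiment differed, as described at the end. Cxcl10 (ENSMUSG00000034855, chromosome 5 from 92346638 to 92348889), a chemokine that draws T cells, had FPKM of 1.2, 1.44, 0.43 and 0.311 in NS and 251, 251, 249 and 257 in LPS_DSF, which is a rise of 8.21 ± 0.45 log2 (adjusted p = 6.84e-07). Its LPS libraries stood at 308 to 348, so the level with disulfiram was below LPS (difference -0.38, adjusted p = 1.6e-08) but far above rest. The gene overlaps Art3, and the strand setting of the counting is not given in the sources used here. Ifit1, an antiviral RNA-binding protein, was at 1.06, 1.55, 3.49 and 2.84 in NS, 252, 284, 259.6 and 241 in LPS and 144, 151, 145 and 153 in LPS_DSF. Its log2 difference was -0.79 against LPS and 6.06 ± 0.37 against NS. Rsad2, the antiviral enzyme viperin, went the other way against LPS, by 0.90, and stood 6.91 ± 0.36 above NS. Without either NS pair the rise was 9.38 and 7.55 for Cxcl10, 5.54 and 6.80 for Ifit1, and 6.42 and 7.59 for Rsad2. Of the 30 genes, 19 were kept in part, 8 moved further and 3 had no call against LPS. The interferon gene Ifnb1 had no counts in any NS library and 15, 19, 19 and 17 counts in LPS_DSF, which puts it at least 8.66-fold higher (against 3 counts per library). LPS_DSF and LPS were not called different for Ifnb1 (difference 0.45, adjusted p = 0.174).

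Secreted factors were mostly still up. Of 25 chemokine and cytokine genes tested, 22 were higher than NS and 2 were lower. LPS alone had raised 20 of them, and these 20 were still higher, beside 72.8% of all LPS-raised genes. Tnf (ENSMUSG00000024401), the inflammatory cytokine, had FPKM of 9.97, 10.7, 4.11 and 4.12 in NS, 122, 128, 131 and 119 in LPS and 207, 196, 211 and 222 in LPS_DSF. Its groups did not overlap, and the rise over NS was 4.86 ± 0.35, 0.76 more than with LPS alone (5.66 and 4.32 over NS without either NS pair). Ccl3, a chemokine for monocytes, stood at 279 to 299.7 FPKM with disulfiram and at 11.5, 13.6, 0.737 and 0.629 in the NS replicates in order, so its fold depended on which NS pair served as the base. The rise was 5.43 ± 0.84 with all NS libraries, 8.68 without replicates 1 and 2 and 4.48 without replicates 3 and 4. Il6 was kept, with 5.3 to 6.28 FPKM in LPS_DSF against 5.98 to 7.25 in LPS and 0 to 0.247 in NS. A pair of genes was almost silent at rest. Edn1, the vasoconstrictor endothelin, had 767 counts in the 4 LPS_DSF libraries against 2 in NS (ratio 570.5, 95% counting interval 157.4 to 4719), and the neutrophil chemokine Cxcl1 had 420 against 1 (ratio 624.8, interval 111.5 to 2.474e+04). Vegfa, an angiogenic factor, stood at 28.3, 25.1, 30.3 and 27.7 FPKM with disulfiram against 3.77, 4.19, 0.348 and 0.378 in NS, a rise of 3.68 ± 0.73 that was 6.25 and 2.78 without either NS pair. Its fitted log2 change of 1.66 for LPS alone was not called with all NS libraries, but Vegfa was called raised by LPS without either pair.

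Surface activation markers were less uniform. Of 20 tested, 10 were higher than NS and 3 were lower, beside 34.3% and 37.3% of all genes tested. Cd69, the early activation antigen, was 8.4 to 12.5 FPKM in NS, 194 to 219.8 in LPS and 194 to 207 in LPS_DSF, a rise of 4.27 ± 0.16 with no call against LPS. Cd274, which encodes the checkpoint ligand PD-L1, reached 261, 244, 247 and 241 against 107, 107, 103 and 103 with LPS alone and 14.3, 14.7, 17.9 and 15.8 at rest. Its rise over NS was 3.99 ± 0.095 and its difference from LPS was 1.26 (adjusted p = 4.72e-19). Cd83 was kept in part, at 2.31 ± 0.32 over NS (3.10 and 1.76 without either pair) and -0.55 against LPS. The costimulator Cd86 was not resolved: its NS values of 49.7, 48.5, 8.01 and 8.19 straddled a wide range, and the change of 1.27 ± 0.58 had an adjusted p of 0.0777. Without replicates 1 and 2 it was 3.07 and without replicates 3 and 4 it was 0.45. Ccr7, a homing receptor, was not resolved either, with 0.82 ± 0.46 (adjusted p = 0.141), 2.14 and 0.10.

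Growth genes moved in both directions. Of 25 genes of Myc and G1 entry tested, 12 were higher and 9 were lower than NS, beside 34.3% and 37.3% of all genes tested. Of the 12 that LPS raised, 9 were still higher, beside 72.8% of all LPS-raised genes. Myc (ENSMUSG00000022346, chromosome 15 from 61985391 to 61990374), the transcription factor that drives cell growth, had FPKM of 50.5, 52.2, 32.8 and 31.2 in NS, 507, 543, 505 and 513 in LPS and 371, 386, 370.2 and 379 in LPS_DSF. It stood 3.18 ± 0.18 log2 above NS (adjusted p = 8.47e-07) and -0.44 from LPS. Mxd1, which competes with Myc for its partner Max, stood at 2.62 to 3.43 FPKM in NS, 7.82 to 8.24 in LPS and 36.9 to 38.3 in LPS_DSF, a rise of 3.63 ± 0.10 over NS. Mxd4, a related repressor, fell by 2.70 ± 0.19. Ccnd2, the cyclin of early G1, stood 3.16 ± 0.076 above NS, whereas its partner kinase Cdk4 had returned, with 34.3, 36.7, 36 and 37 FPKM against 38.4, 39.3, 32.5 and 33.4 at rest (difference 0.0099, 95% interval -0.16 to 0.18). Cdk4 was lower than NS without NS replicates 3 and 4 (-0.14) and under total-count scaling (-0.40).

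In the replicated libraries ribosome biogenesis was reduced against LPS but not reset. With disulfiram 49 of 50 genes tested were higher than NS and none was lower. Their median was 1.14, against 1.46 with LPS alone. LPS alone had raised all 50, and 84.7% of all genes raised by 1 to 2 on the log2 scale were still higher. Of the 50 genes, 40 were kept in part. Without NS replicates 1 and 2 the counts were 49 higher and 1 lower, and with total-count scaling 40 and 1. Gnl3, the nucleolar GTPase nucleostemin, had FPKM of 20.5, 20.1, 10.4 and 10.8 in NS and 68.4, 65.1, 66.2 and 64.4 in LPS_DSF, and Nop58, a core protein of box C/D snoRNPs, had 14.3, 14.7, 8.63 and 8.82 and 46.7, 50.7, 45.8 and 49.5. Their rises of 2.10 ± 0.23 and 2.06 ± 0.19 carried no call against LPS. Utp4, a small-subunit processome protein, was 0.25 above LPS. The RNA polymerase I factor Ubtf was the only member that had returned. In the second experiment the list as a whole stood near NS, with a median of -0.06 against 1.27 with LPS. There 24 of the 50 genes were above NS.

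A set of stress genes was above rest as well. All 21 heat shock genes tested, the mitochondrial Hspd1 and Hspe1 among them, were higher than NS. Their median was 2.34, against 0.78 for LPS alone, and the count was 21 without either NS pair. LPS alone had raised 14 of the 21 and lowered 4. Hspa1a (ENSMUSG00000091971, chromosome 17 from 34969190 to 34972156), the inducible HSP70, had FPKM of 6.48, 5.76, 0.571 and 0.62 in NS, 3.96, 3.5, 9.02 and 8.22 in LPS and 905, 830.0, 1096 and 1072 in LPS_DSF. Every LPS_DSF library was far above every other library, and the rise over NS was 8.19 ± 0.91 log2 (292-fold, adjusted p = 4.31e-05). The near-identical copy Hspa1b rose by 8.19 ± 0.87, and the division of reads between them is uncertain. Both had lower levels in NS replicates 3 and 4, and the rise of Hspa1a was 10.67 without replicates 1 and 2 and 7.29 without 3 and 4, and that of Hspa1b was 10.39 and 7.31. Hspb1, a small chaperone, stood at 0.117 to 1.05 FPKM in NS and 44.6 to 67.4 in LPS_DSF. For Hsph1, the HSP110 nucleotide exchange factor, the ranges were 6.74 to 13.2 and 290.0 to 342. The constitutive Hsp90ab1 rose by 2.33 ± 0.11, to 2820.5, 2952, 3033 and 3229 FPKM. Hspe1 and Hspd1, which share the heat shock element printed above, rose by 2.35 ± 0.10 and 2.34 ± 0.16, against 0.66 and 1.42 with LPS alone.

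Some chaperone genes crossed the resting level. LPS alone changed Dnajb1, an HSP40 cochaperone, by -0.27 log2, and with disulfiram it stood 2.16 ± 0.083 above NS, at 76.5, 75.6, 85.6 and 87 FPKM against 17.9, 16.9, 19.9 and 18.3. Bag3, a cochaperone for selective autophagy, stood at 0.907 to 1.75 FPKM in NS, 0.641 to 1.01 in LPS and 13.6 to 16.5 in LPS_DSF, 3.49 ± 0.20 above NS. Without NS replicates 1 and 2 the change of Bag3 with LPS alone was not called. The LPS_DSF libraries of both genes lay above all other libraries.

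Most NRF2 targets were above rest. Of 22 tested, 18 were higher than NS and none was lower, with a median of 2.44 against 0.26 for LPS alone, and 8 of them were higher only with LPS_DSF. Without NS replicates 1 and 2 the counts were 19 higher and 1 lower, and without replicates 3 and 4 they were 20 and 2. How much of this LPS did alone depended on the NS pair: its median was 1.38 without replicates 1 and 2 and 0.061 without 3 and 4, and 1 target was higher only with LPS_DSF in either setting. Hmox1 (ENSMUSG00000005413, chromosome 8 from 75093621 to 75100589), which degrades heme, had FPKM of 36, 37.9, 2.69 and 3.18 in NS, 7.09, 7.14, 8.33 and 7.48 in LPS and 879.5, 913, 964 and 1017 in LPS_DSF. The NS pairs differed widely, yet every LPS_DSF library was far above every NS library, with a rise of 5.57 ± 0.92 (adjusted p = 0.0005), 8.32 without replicates 1 and 2, and 4.65 without 3 and 4. Gclm, whose antioxidant element is printed above, was 6.99, 6.97, 2.8 and 2.65 in NS and 56, 61.6, 61.3 and 59.4 in LPS_DSF, a rise of 3.63 ± 0.34 against 0.038 for LPS alone. LPS alone was called to raise Gclm without NS replicates 1 and 2 and to lower it without 3 and 4, and the rise with disulfiram was 4.44 and 3.07. Txnrd1, the cytosolic thioredoxin reductase, rose by 3.76 ± 0.52 (5.10 and 3.04 without either pair). Fth1, the ferritin heavy chain, reached 7114, 7731, 7828 and 8368 FPKM from 1058, 1068, 746 and 722. Sqstm1, the autophagy receptor p62, rose by 4.18 ± 0.36, with 52.1 to 139 FPKM in NS and 1588 to 1876 in LPS_DSF, and by 4.97 and 3.63 without either pair. The gene overlaps Mrnip.

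The metal response list moved in both directions, with 8 of 15 genes higher and 4 lower than NS. Of all genes tested 34.3% were higher and 37.3% lower. Mt1 (ENSMUSG00000031765) had FPKM of 3.34, 3.06, 3.88 and 4.68 in NS, 2.08, 1.9, 22.7 and 12.7 in LPS and 99.4, 119.7, 105 and 126 in LPS_DSF. The LPS libraries disagreed among themselves, but all 4 LPS_DSF libraries were above every other library, and the rise over NS was 4.92 ± 0.16 (adjusted p = 5.98e-08). Slc39a10, a zinc importer, moved the opposite way and was pushed below rest, with 4.68, 4.5, 4.05 and 4.19 in NS, 7.24, 7.23, 5.69 and 5.71 in LPS and 1.11, 1.2, 1.18 and 1.05 in LPS_DSF (-1.93 ± 0.088 against NS). Sod1, the copper and zinc superoxide dismutase, rose by 1.94 ± 0.084.

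**Figure D3:**
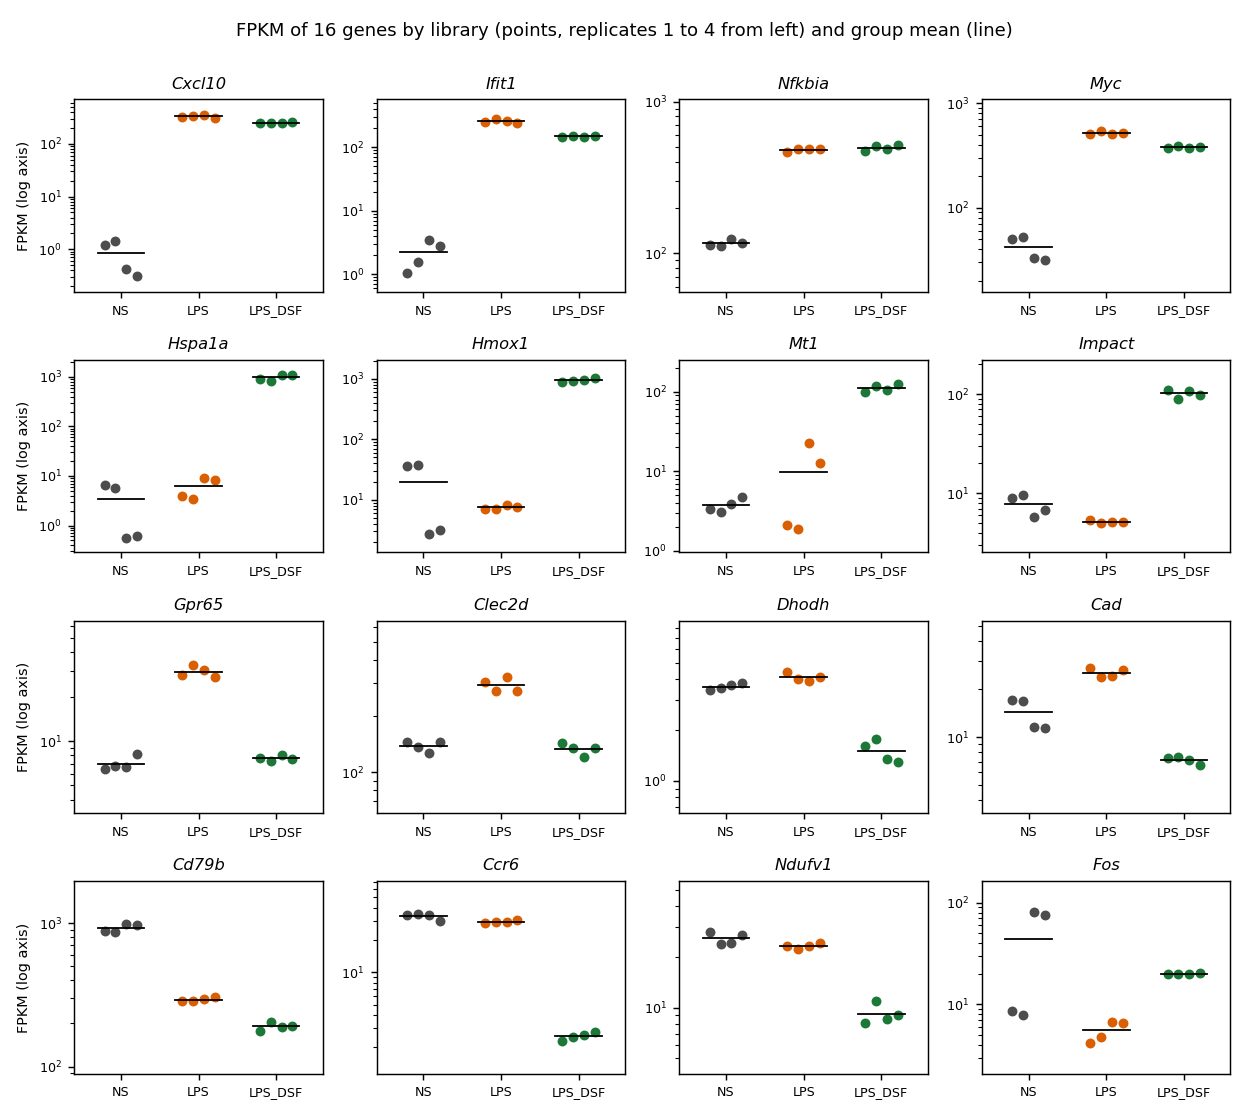
FPKM on a log axis of 16 genes in each of the 12 libraries of NS, LPS and LPS_DSF, one panel per gene. Cxcl10, Ifit1, Nfkbia and Myc stay above NS with disulfiram, Hspa1a, Hmox1 and Mt1 stand out in LPS_DSF, and Gpr65 lies at its NS level.

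Protein quality genes of other compartments rose as well. Among 25 genes of ER stress and the integrated stress response, 20 were higher than NS and 3 were lower (median 1.35, against 0.84 with LPS). Dnajb9, an ER cochaperone of the unfolded protein response, had FPKM of 12.3, 13.6, 10.9 and 12.1 in NS, 20.1, 20.4, 21.5 and 22.4 in LPS and 115, 113, 117 and 127 in LPS_DSF, a rise of 3.28 ± 0.089. Ppp1r15a, which directs dephosphorylation of eIF2α, rose by 2.95 ± 0.079 and Chac1, which degrades glutathione, by 2.97 ± 0.63. For Chac1 the rise was 5.20 and 2.11 without either NS pair. Of 31 proteasome subunit genes 30 were higher and none was lower, beside 34.3% and 37.3% of all genes tested. Their median was 0.92 against 0.64 with LPS, which alone had raised 27. With disulfiram 27 of the 31 were above LPS, beside 35.1% of all genes tested there. In the second experiment the proteasome median was 0.38 with disulfiram against 0.60 with LPS, and 22 of the 31 were above NS. Psmd1, a base subunit of the regulatory particle, stood at 17.3, 16.6, 9.78 and 8.34 FPKM in NS and 45.6, 50.3, 47.3 and 49.5 in LPS_DSF (1.90 ± 0.22). Total-count scaling left 23 proteasome genes higher and 1 lower. Of 25 autophagy and ubiquitin stress genes, 17 were higher and 4 were lower. Gabarapl1, an autophagosome protein of the ATG8 family, rose by 3.46 ± 0.38, with 4.03 to 12.6 FPKM in NS and 77.7 to 94.5 in LPS_DSF. That rise was 4.41 without replicates 1 and 2 and 2.86 without 3 and 4. Its change with LPS alone was 0.14 and not called, whereas LPS was called to raise it without replicates 1 and 2 and to lower it without 3 and 4.

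Immediate early genes were raised beyond LPS, and death regulators were mixed. Of 23 immediate early genes, 18 were higher than NS and 1 was lower. For LPS alone, which raised 29.6% and lowered 33.3% of 14477 genes, 11 were higher and 5 were lower. Fosl1, a FOS-family transcription factor, had FPKM of 2.48, 2.21, 0.26 and 0.308 in NS, 4.38, 5.71, 5.65 and 5.36 in LPS and 42.5, 44.2, 41 and 42.3 in LPS_DSF (5.00 ± 0.58, and 7.20 and 4.15 without either NS pair). Atf3, a stress-induced repressor, reached 169, 161, 179 and 189 FPKM against 15.6, 16.2, 1.01 and 1.46 at rest, a rise of 4.36 ± 0.85 that was 7.14 and 3.43 without the first or the last pair of NS replicates. Jun was kept in part (2.09 ± 0.33 over NS, with 1.57 and 2.88 without either pair, and -0.51 against LPS). For Fos no direction can be given, since NS stood at 8.6, 7.87, 81.3 and 76.4: the change of -1.12 ± 0.72 (adjusted p = 0.189) became -1.99 without replicates 1 and 2 and 1.25 without 3 and 4. Over all genes tested, 34.3% were higher than NS and 37.3% were lower. Of 21 p53 targets 12 were higher and 8 were lower. Cdkn1a, the cell cycle inhibitor p21, had FPKM of 10.1, 8.89, 0.647 and 0.617 in NS and 135, 134, 137 and 145 in LPS_DSF. Its rise of 4.78 ± 0.90 was 7.75 without replicates 1 and 2 and 3.83 without 3 and 4. In the BCL2 family 9 of 15 genes were higher and 5 were lower. The antiapoptotic Bcl2l1 was kept in part, with 27.7 to 32.9 FPKM against 49.4 to 51.4 in LPS and 1.22 to 5.24 in NS. The proapoptotic Bcl2l11 (BIM) was at 125 to 128 FPKM with disulfiram and 40.2, 41.4, 6.51 and 6.98 at rest, a rise of 2.42 ± 0.61 that was 4.22 and 1.60 without either pair. Bcl2 itself fell by 1.59 ± 0.45 (adjusted p = 0.0107), with a difference of -2.24 without NS replicates 1 and 2 and -0.40 without 3 and 4.

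**Figure D4:**
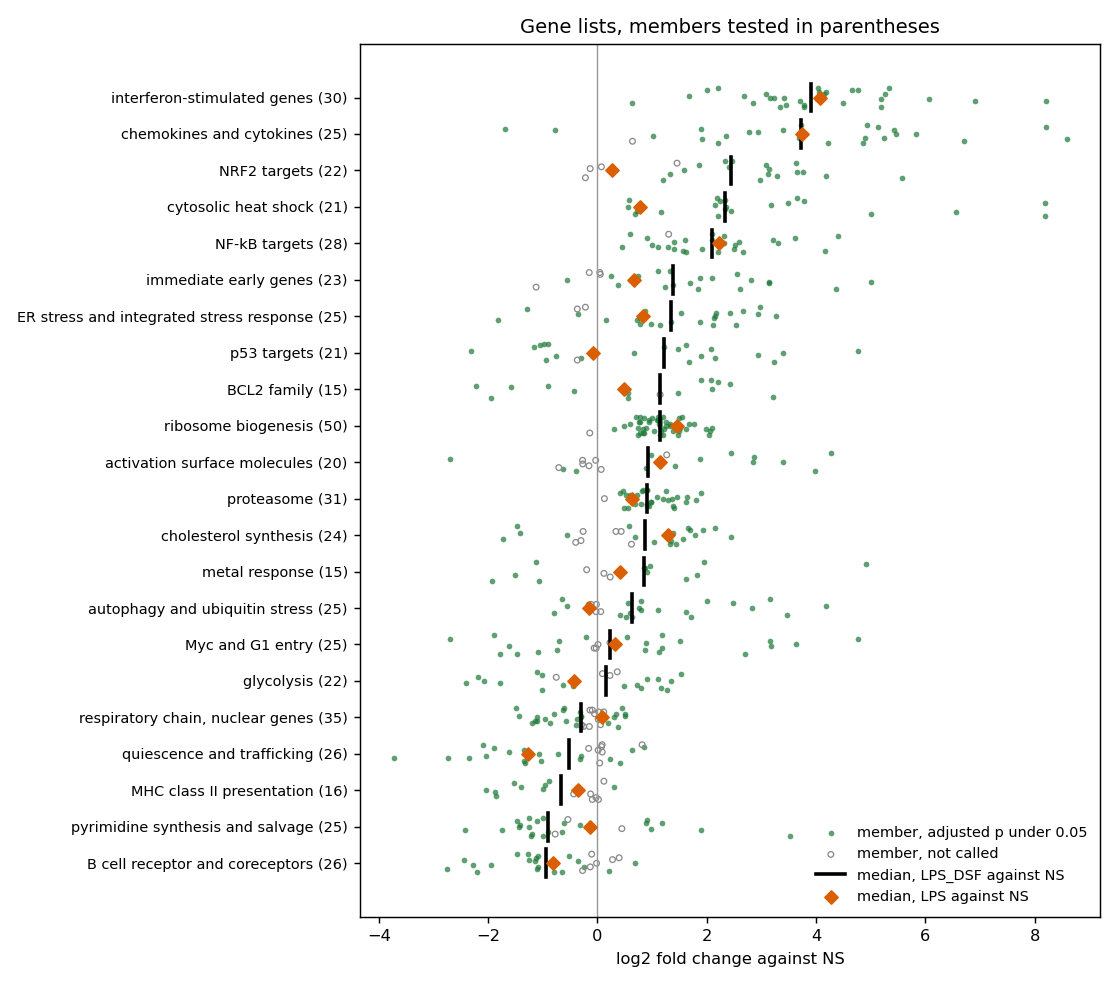
Log2 fold change of LPS_DSF against NS for each tested member of the gene lists, 1 point per gene, with the list's median as a black line and its median for LPS against NS as an orange diamond. Heat shock and NRF2 targets lie far to the right of their LPS medians of 0.78 and 0.26, and pyrimidine genes to the left of theirs at -0.14. The list labelled cytosolic heat shock also holds the mitochondrial Hspd1 and Hspe1.

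The largest rises included Muc3, a membrane mucin gene that had no counts in any NS or LPS library and 33, 27, 44 and 48 counts in the LPS_DSF libraries, at least 18.9-fold above NS. At the other end were genes nearly absent with disulfiram. S1pr5, a sphingosine phosphate receptor, had 350 counts in NS and 2 in LPS_DSF (ratio 117.6, interval 32.32 to 975.2), most of them in NS replicates 3 and 4. Klri1, a receptor gene of the NK complex, had 46, 53, 31 and 21 counts in NS and none in LPS_DSF, at least 8.29-fold lower, and Pdlim3 was at least 4.33-fold lower. Cx3cr1, the fractalkine receptor, stood at 5.07, 5.41, 5.73 and 5.13 FPKM in NS and 0.0365 to 0.14 in LPS_DSF (-5.80 ± 0.26), and LPS alone gave -5.46. Cx3cr1, like Ccr2 (-4.44 ± 0.31), also marks monocytes, and the summed myeloid markers given above were lower too. The part of those cells was not tested.

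Returned genes differed from LPS and lay within 2-fold of rest. Gpr65 (ENSMUSG00000021886, chromosome 12 from 98268635 to 98276644), a proton-sensing receptor, had FPKM of 6.5, 6.77, 6.65 and 8.13 in NS, 28.3, 32.8, 30.3 and 27 in LPS and 7.71, 7.3, 8.02 and 7.5 in LPS_DSF. The LPS_DSF libraries lay inside the range of NS, with a difference of 0.13 (95% interval -0.11 to 0.36, adjusted p = 0.291), while the difference from LPS was -1.94 (adjusted p = 2.86e-18). It was returned without either NS pair. Under total-count scaling Gpr65 came out lower than NS, at -0.28 (adjusted p = 0.0318). Clec2d, a ligand of an inhibitory NK receptor, stood at 144, 137, 127 and 145 in NS, 303, 272, 324 and 274 in LPS and 144, 134, 121 and 135 in LPS_DSF and was likewise returned without either pair (interval -0.23 to 0.13). Total-count scaling called Clec2d lower than NS too, at -0.46 (adjusted p = 0.00101). Epop, a Polycomb-associated factor, Rcn1, an ER calcium-binding protein, and Pkib, a protein kinase A inhibitor, differed by -1.76, -1.50 and -1.55 from LPS. Each of these 3 was kept in part when 1 of the NS pairs was left out.

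Among lowered genes the same held for few members in every setting. Rtn4rl1, a Nogo receptor homologue, was 0.328 to 0.448 FPKM in NS, 0 to 0.0585 in LPS and 0.342 to 0.425 in LPS_DSF, and was returned without either NS pair (difference 0.059, interval -0.40 to 0.52). Palm, a membrane-attached protein, and H2-Ob, a subunit of the DO regulator of peptide loading, were returned with all NS libraries (differences -0.29 and -0.095) and lower than NS without replicates 1 and 2 (-0.40 and -0.22). With total-count scaling both were called lower, at -0.69 and -0.50.

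Most genes of pyrimidine synthesis and salvage were below rest. Of 25 genes tested, 16 were lower than NS and 6 were higher, with a median of -0.90 against -0.14 for LPS alone. Of the 16 lower genes, 10 had been lowered by LPS, 3 were lower only with LPS_DSF and 3 were LPS-raised genes pushed below NS, Dhodh and Cad among them. Of the 11 genes that LPS raised, 6 were still higher. Dhodh (ENSMUSG00000031730, chromosome 8 from 109591343 to 109608673), which catalyses the mitochondrial step of the pathway, had FPKM of 3.44, 3.55, 3.7 and 3.78 in NS, 4.43, 3.99, 3.92 and 4.11 in LPS and 1.6, 1.78, 1.36 and 1.29 in LPS_DSF. All 4 LPS_DSF libraries were below all NS libraries, with a difference of -1.26 ± 0.12 (adjusted p = 1.37e-05). LPS had raised Dhodh by only 0.20 (adjusted p = 0.0417), and without NS replicates 1 and 2 that rise was not called. Cad, the trifunctional enzyme of the opening steps, was 17.1, 17, 11.6 and 11.5 in NS, 27, 24, 24.1 and 26.6 in LPS and 7.33, 7.49, 7.13 and 6.64 in LPS_DSF, -0.99 ± 0.14 against NS and -1.81 against LPS. Umps, which makes UMP, was kept in part at 0.89 ± 0.13 above NS, as was Ctps, which makes CTP, at 1.90 ± 0.22. Prps2, which supplies the ribose phosphate donor, fell by 2.42 ± 0.19, to 4.38, 4.36, 3.99 and 4.29 FPKM from 16.7, 18, 28.7 and 27.7. For the salvage kinase Uck2 the sign depended on the NS pair, with 1.72 without replicates 1 and 2 and -0.26 without 3 and 4.

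Other LPS-raised genes pushed below rest had small LPS effects or low levels. Gtf2i, a general transcription factor, was 9.71, 9.51, 8.94 and 7.98 in NS, 10.6, 10.5, 9.77 and 10.3 in LPS and 3.52, 3.3, 3.22 and 3.24 in LPS_DSF (-1.44 ± 0.071 against NS). Insl3, a relaxin-family peptide gene, stood at 2.29 to 3.24 FPKM in NS and 0.578 to 1.59 in LPS_DSF (-1.47 ± 0.31). Apol7c, an apolipoprotein L gene, differed most from LPS of these, by -3.01, but its difference from NS was -2.07 without replicates 1 and 2 and -0.53, not called, without 3 and 4. The class was shared widely between settings, with 255 of its 308 genes (82.8%) in it without either NS pair.

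In the opposite direction, genes that LPS lowered ended above rest. Impact (ENSMUSG00000024423), which restrains the amino acid sensor GCN2, had FPKM of 9, 9.51, 5.75 and 6.73 in NS, 5.32, 5.06, 5.15 and 5.09 in LPS and 110.3, 89.8, 108 and 98.6 in LPS_DSF, a rise of 3.72 ± 0.17 over NS (adjusted p = 2.96e-07). P2rx7, an ATP-gated channel, stood at 0.477 to 0.986 FPKM in NS, 0.151 to 0.535 in LPS and 5.15 to 6.74 in LPS_DSF (3.00 ± 0.23 against NS). Ccnf, an F-box protein of the cyclin family, rose by 2.53 ± 0.10, and was not called lowered by LPS without NS replicates 3 and 4. Actg1, the cytoskeletal γ-actin, was the abundant example, at 728, 782, 787 and 809.5 FPKM in LPS_DSF against 321, 318, 346 and 340.3 in NS and 254, 262, 285 and 289 in LPS. Of the 337 genes of this class, 239 (70.9%) were in it without either NS pair.

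In the replicated libraries the B cell receptor apparatus stayed mostly down. Of 26 genes tested, 18 were lower than NS and 2 were higher. Their median was -0.94, against -0.81 for LPS alone. Without NS replicates 1 and 2 it was -0.98, with 21 lower and 2 higher. Without replicates 3 and 4 it was -0.48, with 18 lower and 5 higher. In the second experiment the median was -0.19, against -0.22 with LPS, and 11 of the 26 genes were above NS. Cd79b (ENSMUSG00000040592, chromosome 11 from 106311341 to 106314762), a signalling chain of the receptor, had FPKM of 881, 876, 983 and 968 in NS, 285, 286, 294 and 307 in LPS and 179, 205, 189 and 192 in LPS_DSF. The 3 groups did not overlap, and the difference was -2.27 ± 0.082 against NS and -0.60 against LPS. Cd79a fell by 1.12 ± 0.14. Cd22, an inhibitory coreceptor, fell by 2.76 ± 0.45 from NS values of 60.7, 62.2, 222 and 203 (-3.40 and -1.63 without either pair). The complement receptor Cr2 differed so much within NS (12.4, 12.8, 112 and 98.4) that its difference of -2.44 ± 0.71 became -3.28 without replicates 1 and 2 and -0.25 without 3 and 4, while LPS_DSF stood at 10.4 to 11.4.

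Antigen presentation changed less evenly. Of 16 MHC class II genes 8 were lower than NS and 1 was higher, beside 37.3% and 34.3% of all genes tested. The counts were 14 lower and 1 higher without NS replicates 1 and 2, and 7 lower and 5 higher without replicates 3 and 4. H2-DMb2, which loads peptide, was 197, 196, 423 and 409 in NS and 74.7, 78.3, 69.8 and 74.1 in LPS_DSF (-2.04 ± 0.28), and H2-Oa fell by 1.87 ± 0.44. Without either NS pair the differences were -2.49 and -1.43 for H2-DMb2, and -2.52 and -0.73 for H2-Oa. The class II chain H2-Aa and the invariant chain Cd74 were not called, at 0.12 ± 0.13 and 0.019 ± 0.13, and their direction turned with the NS pair left out (-0.10 and -0.20 without 1 and 2, 0.32 and 0.22 without 3 and 4). B2m, the light chain of class I, stood at 1214 to 1524 FPKM in NS, 2024 to 2346 in LPS and 3659 to 4099.5 in LPS_DSF, a rise of 1.52 ± 0.10.

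Of 26 genes of quiescence and trafficking, 15 were lower and 4 were higher than NS, beside 37.3% and 34.3% of all genes tested. Their median was -0.52 against -1.27 with LPS. Klf2 (ENSMUSG00000055148), a transcription factor of resting lymphocytes, had FPKM of 104, 111, 249 and 224 in NS, 24.7, 25.1, 25.9 and 27.7 in LPS and 23.4, 28, 24.6 and 26.5 in LPS_DSF, and its difference of -2.74 ± 0.30 carried no call against LPS (-3.21 and -2.09 without either pair). Ccr6, a chemokine receptor, was lost mainly with the drug, at 34.4, 35.2, 34.5 and 30.1 in NS, 28.7, 29.4, 29.2 and 31 in LPS and 2.28, 2.48, 2.58 and 2.77 in LPS_DSF (-3.72 ± 0.085, adjusted p = 2.44e-08). Lpl, lipoprotein lipase, fell by 5.00 ± 1.15, though NS stood at 9.25, 9.29, 0.431 and 0.473, and the difference was -1.60 without replicates 1 and 2 and -5.98 without 3 and 4.

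Of 35 nuclear respiratory chain genes 18 were lower and 7 were higher than NS, beside 37.3% and 34.3% of all genes tested. Under total-count scaling 29 of the 35 were lower and none was higher. Of the 18 lower genes, 8 had been lowered by LPS, 6 were lower only with LPS_DSF and 4 were LPS-raised genes pushed below NS. Ndufb10, a subunit of complex I, fell by 1.43 ± 0.10 and was lowered by LPS alone as well (-0.37). Ndufv1, a catalytic subunit of the same complex, was lower only with LPS_DSF, with all NS libraries and without either pair, at 28.2, 23.8, 24.1 and 27.1 in NS, 23.3, 22.2, 23.1 and 24.2 in LPS and 8.12, 10.9, 8.59 and 9.05 in LPS_DSF (-1.48 ± 0.11, with -0.14 for LPS).

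The other genes named as lower only with LPS_DSF changed class with the NS libraries. Ly6d, a GPI-linked B-lineage antigen, dropped to 173, 203, 185 and 201 FPKM from 341, 345, 643 and 635. Tmsb4x, an actin-binding peptide, was the most abundant member named, with 1069.9 to 1239 FPKM against 1499 to 1533 (-0.38 ± 0.076). B3gnt7, a glycosyltransferase, fell by 3.32 ± 0.81 and Rtn1, a reticulon, fell by 3.64 ± 0.56, and they gave -0.98 and -4.25 without NS replicates 1 and 2, and -4.22 and -2.62 without 3 and 4. Ly6d, Tmsb4x and B3gnt7 carried a call for LPS alone without either pair, and Rtn1 without replicates 1 and 2. The class as a whole moved with the NS libraries, since 470 of its 1241 genes (37.9%), and 353 of 1212 (29.1%) of the genes higher only with LPS_DSF, were in the class without either pair.

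Cholesterol synthesis and glycolysis genes moved in both directions. Over all 14663 genes tested, 34.3% were higher than NS and 37.3% lower, and the glycolysis counts were near these shares. Of 24 cholesterol genes 14 were higher and 4 were lower than NS, with a median of 0.87 against 1.29 with LPS. Of 22 glycolysis genes 9 were higher and 9 were lower, and their median of 0.16 became -0.25 under total-count scaling. The median of the Myc and G1 list likewise went from 0.23 to -0.19.

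A second experiment, with 1 library of each group and therefore no test, was not used to define the classes. Of all 14275 genes with enough counts there, 48.3% were above NS in LPS_DSF and 51.7% below. Genes pushed below NS were below NS in 307 of 307 cases, with a median log2 ratio of -1.18. Genes pushed above were above NS in 333 of 337, with a median of 1.37. Among genes higher only with LPS_DSF 95.2% were above, and among those lower only 94.6% were below. Of all called genes, 8053 of 9670 (83.3%) lay on the same side of NS.

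The classes of genes still raised in the replicated experiment differed in the other. Raised genes that moved further were above NS in 93.4% (median 1.04), those with no call against LPS in 70.8% (0.30), and those kept in part in 32.8% (-0.26). Returned raised genes had a median of -0.67, with 64 of 637 above NS, and returned lowered genes a median of 0.53, with 80.1% above. Heat shock genes had a median of 2.94 and immediate early genes of 2.64, with 19 of 21 and 23 of 23 above NS. NF-kB targets had 0.99 with 22 of 28 above, and ribosome biogenesis genes -0.06 with 24 of 50 above. Dhodh was at -2.06 and Cad at -2.16, Hspa1a at 10.33 and Hmox1 at 4.88, while Myc was at 0.77 against 2.96 with LPS.

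Interferon-stimulated genes went the other way between the experiments. None of the 30 was above NS in LPS_DSF of the second experiment, and their median was -2.07, against 3.91 in the replicated one. The unstimulated library already held high counts of these genes there: Ifit1 had 2317 counts in NS, 2306 in LPS and 154 in LPS_DSF, and Cxcl10 had 1017, 3633 and 241. LPS alone gave a median ratio of -0.17 for the list. The resting level that serves as the base thus differed between the experiments. The difference between LPS_DSF and LPS, which does not use NS, was also larger there. For Cxcl10 that log2 ratio was -3.80, against -0.38 in the replicated libraries, where the list's median was -0.29. The cause of either difference was not tested.

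**Figure D5:**
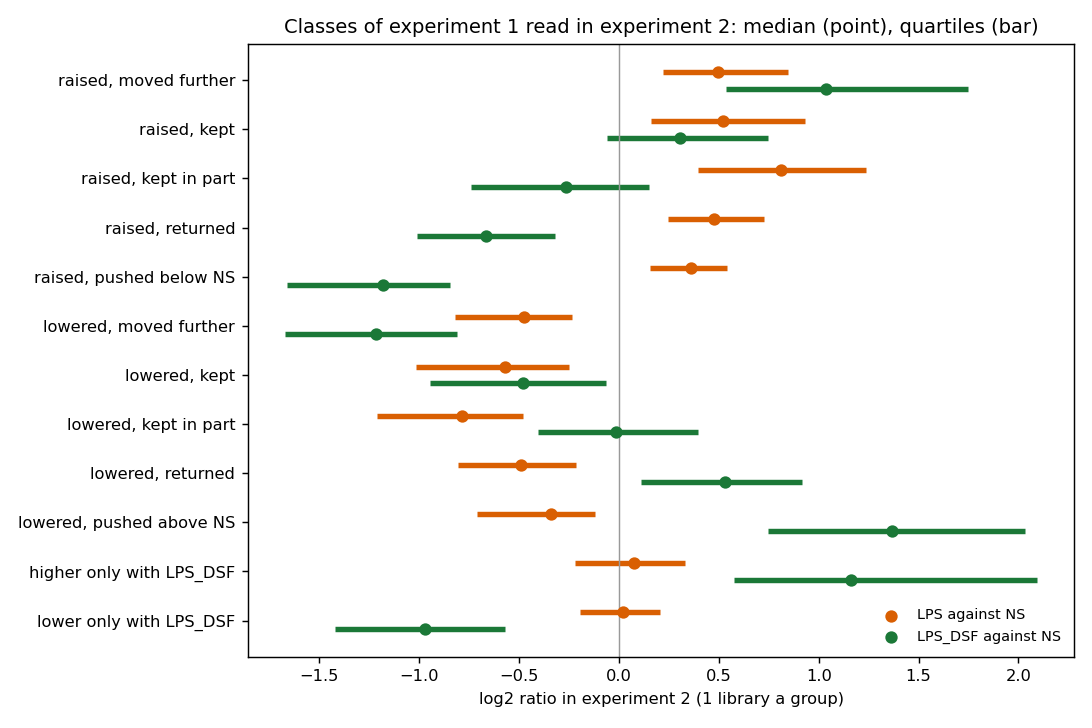
Median log2 ratio to NS (points) and quartiles (bars) in the second experiment, 1 library a group, for the genes of each class set in the replicated experiment, for LPS and for LPS_DSF. Classes pushed below and above NS sit at -1.18 and 1.37 in LPS_DSF, and the class kept in part at -0.26.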

How the data were processed

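Splenic B cell mRNA was sequenced on a NovaSeq instrument, and the labels allow for a directional or a non-directional library. The authors trimmed reads with Fastp, aligned them to mm10 with HISAT2 and counted genes with featureCounts (versions 2.0.5 and 1.5.0-p3 in the submitters' processing notes). The annotation release and strand setting are not given in the sources used here. The files hold the authors' raw counts for 54532 genes and the authors' FPKM. FPKM was used for levels only, and a further FPKM table was not used here.

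Groups came from the labels. Counts were tested with edgeR 4.0.16 (limma 3.58.1, R 4.3.3): filterByExpr, TMM scaling, quasi-likelihood test, 8 libraries per comparison, Benjamini-Hochberg adjusted p under 0.05. TMM factors were 1.13 to 1.19 in NS and 0.843 to 0.888 in LPS_DSF, so total-count scaling shifts the median log2 change by -0.409. Ratios of the authors' FPKM did not show that shift in Fth1 and Tmsb4x. Mean FPKM in NS and LPS_DSF was 898 and 7760 for Fth1 and 1516 and 1163 for Tmsb4x, close to the TMM folds of 8.69 and 0.770. SE is that of the log2 fold change. The 95% interval limit for a returned gene was 1 on the log2 scale. In simulated counts for LPS_DSF against NS (14585 genes), 149 of 150 planted genes were called and 14 others. The simulated libraries had the same relative spread for every gene, few changed genes and no split among NS libraries. They therefore cannot gauge the error of calls made with the split NS libraries. The second experiment was expressed as log2 ratios of TMM-scaled CPM (prior count 2, mean count of 10 or more). Counting intervals and bounds cover counting error only.

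Named genes were, for each direction and class, those with the largest change or highest FPKM that met minimum counts of 10, plus list members. Klri1 and similar genes missing from a class were not tested in all 3 comparisons. The members, lists and tests were chosen with earlier results of these data known. Alternatives were DESeq2 1.42.0, total-count scaling, other filters, a minimum fold, a replicate block and leaving out libraries. Some items are not reported here.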

Additional observations from a re-analysis of the deposited data

Results flagged for a closer look

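The FPKM of 102 named genes were examined in 306 groups of 4 libraries, and in 10 groups 1 library stood far from the other 3. Chance gives such a gap in about 1 in 20 groups. In NS these were replicate 2 for Cxcl1 (0.0205 FPKM, others at 0) and replicate 4 for Gpr65 (8.13, others 6.50 to 6.77). In LPS they were replicate 3 for Edn1 (12.1, others 10.4 to 10.7), replicate 1 for Nfkbia (463.0, others 484.0 to 485.9), replicate 4 for Cr2 (16.5, others 15.4 to 15.6), replicate 1 for H2-Aa (1176, others 1260.1 to 1270.2) and replicate 1 for Ly6d (383.6, others 415.6 to 422.1). In LPS_DSF they were replicate 4 for Ccl3 (299.7, others 279.5 to 282.4), replicate 4 for H2-Ob (250.2, others 239.5 to 240.4) and replicate 1 for H2-Oa (18.9, others 19.6 to 19.7).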

How the results depend on the processing

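Requiring a log2 change of at least 1 left 2649 genes higher and 2963 lower than NS, 1179 raised genes still higher, 70 returned and 4 pushed below, 1279 lowered genes still lower, 161 returned and 33 pushed above, 641 higher only, 482 lower only and 75 list members lower, since the threshold itself removes smaller changes. With total-count scaling 3151 genes were higher, 1710 raised genes were still higher, and the share of called genes on the same side of NS in the second experiment was 79.2%. The medians of that experiment reversed to -0.14 for raised genes with no call against LPS and -0.34 for other genes with no LPS call, and Gpr65, H2-Aa, Cd74 and Cdk4 to -0.28, -0.29, -0.39 and -0.40. Clec2d, H2-Ob and Palm, returned with TMM, were then called lower, at -0.46, -0.50 and -0.69. A mean of 50 counts gave 0.091 for lowered genes kept in part, and an interval within 0.5 left 278 lowered genes returned. Leaving out NS replicates 3 and 4, chosen after seeing the data, gave 622 genes pushed below and 586 pushed above, and Uck2, Cdk4 and Fos at -0.26, -0.14 and 1.25. Leaving out NS replicates 1 and 2 gave Cd74 at -0.20. The cause of these changes was not tested.

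Leaving out 1 library at a time gave 4724 to 4973 higher and 5144 to 5656 lower genes, 2844 to 3117 raised genes still higher, 595 to 691 returned and 258 to 323 pushed below, 3086 to 3458 lowered genes still lower, 414 to 528 returned and 264 to 320 pushed above, 1071 to 1396 higher only and 1126 to 1497 lower only, and 323 to 335 list members higher and 114 to 138 lower. DESeq2 called 5252 higher and 5388 lower. A fit with the replicate number as a block called 4900 and 5173. Same-numbered NS and LPS_DSF libraries did not deviate together over all genes (correlations -0.033 to 0.006). The split among NS libraries dominates their deviations, so this cannot exclude that the numbers pair the samples. Depth limits Edn1, Cxcl1, S1pr5, Klri1, Ifnb1, Pdlim3 and Muc3, whose ratios rest on 0 to 2 counts in 1 group.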
